A study of Mus musculus with 6 samples.

Results

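The epidermal growth factor (EGF) receptor family and its ligands were followed in mouse embryonic fibroblasts as a set of 10 genes: the receptors Egfr, Erbb2 and Erbb3, the EGFR ligands Areg, Ereg, Hbegf, Tgfa and Btc, the neuregulin Nrg1, and the receptor inhibitor Errfi1. The set was chosen by name, as a family, with earlier results of these data known. Probes were assigned by current gene symbol or synonym, and each gene was represented by its brightest probe over all arrays, with its other probes as a check. This gave 9 measured genes, with 18 probes, of the 20289 genes measured in all. Areg, which encodes amphiregulin, was not analysed here.

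The fibroblasts were of strain C57BL6, taken from embryos of day 13.5, and stably expressed a short hairpin RNA (shRNA). An shRNA against GFP served as the control (3 arrays) and was compared with an shRNA against Ube2o (3 arrays), which encodes a large ubiquitin-conjugating enzyme; the submitters asked which genes and pathways respond to its loss. Cells of both groups stably express a hairpin, and the labels give a single hairpin name for Ube2o, so effects of that hairpin and of Ube2o loss cannot be told apart. Although the cultures are called independent, separate embryos are not named, and the p-values therefore cover the spread between these arrays alone, which may be in part technical.

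Receptors of this family are tyrosine kinases at the cell surface that signal as pairs. EGFR binds a group of ligands with an EGF-like fold, ERBB2 has no known soluble ligand and acts as a partner, and ERBB3, whose kinase is weak, binds neuregulins. Most ligands are made as membrane-anchored precursors and are cut loose by metalloproteases such as ADAM17; cultured fibroblasts respond to EGF by growth, and they can also make several of the ligands themselves.

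Across all arrays the median deposited intensity lay between 153 and 174, and between 44.6% and 47.0% of probes lay above the background inferred from the dim probes of each array. Precision is limited by the number of arrays. Ube2o had intensities of 1875, 1961 and 2091 with GFP shRNA and of 668, 851 and 650 with Ube2o shRNA, a 2.74-fold lower level (log2 change -1.45, limma adjusted p = 3.15e-07). Of the fibroblast markers, 10 of 10 lay above background on all 6 arrays. Their summed normalized level ranged from 60865 to 68059 with GFP shRNA and from 71467 to 76753 with Ube2o shRNA; within the list Pdgfra fell by 0.76 on the log2 scale and Prrx1 rose by 0.46. Of 10 epithelial and keratinocyte markers 5 lay above background on no array, Krt5 and Epcam among them. The sum of this list was 1305 to 1314 with GFP shRNA and 994 to 1047 with Ube2o shRNA, and 1 of its 10 genes fell, the transcription factor gene Trp63 (log2 change -1.02), while 9 did not pass and the list's median log2 change was -0.04. The dimmer probe of Trp63 was above background on 0 of 6 arrays. Of 8 macrophage markers 3 lay above background on no array (Adgre1, Cd68 and Ptprc). Their sum was 1521 to 1723 with GFP shRNA and 1309 to 1333 with Ube2o shRNA, with falls of 0.74 for Aif1 and 0.57 for Cd14. The other 6 macrophage markers did not pass, C1qa among them with a log2 change of 0.29, and the median of the list was -0.03. None of the 4 measured Schwann cell and neural crest markers or the 6 endothelial markers passed the test, and their sums overlapped between the groups (298 to 320 against 309 to 338, and 492 to 532 against 478 to 515). The part of other cell types in the results below was not tested.

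No gene of the family passed the test by its brightest probe. In limma, with p-values adjusted over all 45281 probes and a threshold of 0.05, 0 of 9 genes were higher and 0 lower with Ube2o shRNA, where 6.86% of all genes passed (2.91% higher and 3.95% lower). At an unadjusted p under 0.05, Erbb2 and Ereg were on the higher side and Egfr on the lower, 3 of 9 genes where 19.8% of all genes were. The changes ran from -0.36 for Egfr to 0.28 for Erbb2 on the log2 scale, with a median of -0.04 against 0.0027 over all genes. Among the 18 probes, 1 passed, the second brightest of Nrg1, which was lower; 4.94% of all probes passed. In bulk samples such as these, fewer cells of a type and less RNA per cell cannot be told apart.

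**Figure D1:**
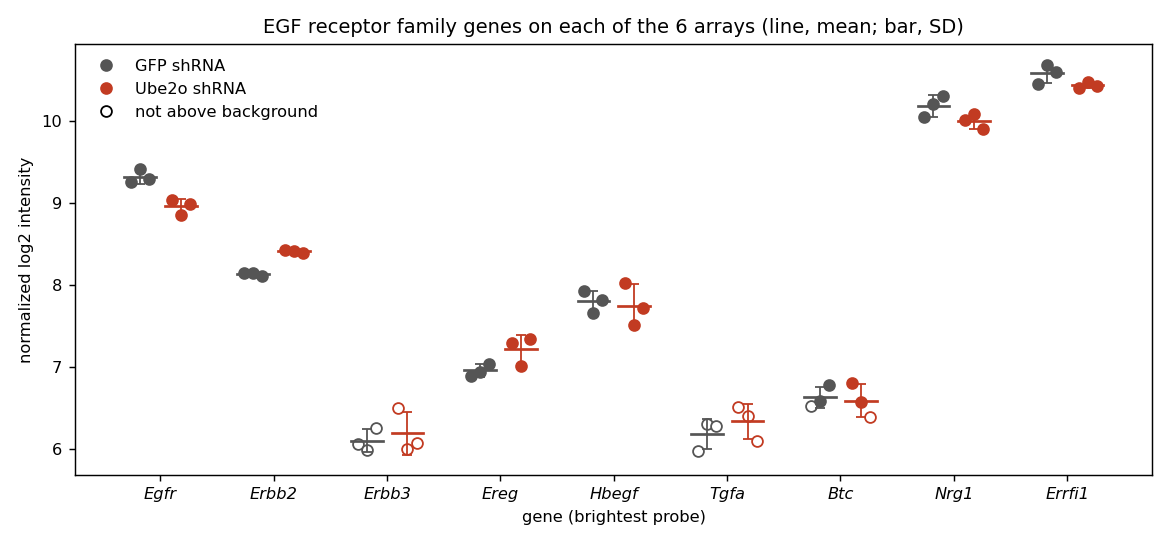
Normalized log2 intensity (vertical axis) of the brightest probe of each measured family member (horizontal axis) on the 3 GFP shRNA arrays (grey) and the 3 Ube2o shRNA arrays (red), with the mean and SD of each group; open points were not above background, and heights of different genes are not comparable. Egfr and Erbb2 are the genes whose groups do not overlap, lower for Egfr and higher for Erbb2, and Erbb3 and Tgfa lie at background on all 6 arrays.

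Egfr, the receptor for EGF itself, was clearly detected and had lower values with Ube2o shRNA that missed the threshold. Its brightest probe had deposited intensities of 658, 786 and 775 with GFP shRNA and of 511, 584 and 563 with Ube2o shRNA. Every Ube2o shRNA array was below every control. After normalization the log2 level was 9.32 ± 0.084 in the controls and 8.96 ± 0.094 with Ube2o shRNA (SD, n = 3 each). Its log2 change was -0.36 (SE 0.11, 95% interval -0.60 to -0.12), a 1.28-fold lower level (limma adjusted p = 0.0835).

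The other Egfr probes had changes of the same sign. The second brightest gave intensities of 527, 505 and 573 with GFP shRNA and of 354, 457 and 407 with Ube2o shRNA, again without overlap (log2 change -0.38, adjusted p = 0.0626). The platform gives this probe another symbol, and it counts as Egfr through the updated symbols. The third and the fourth had log2 changes of -0.21 and -0.27 and the dimmest, above background on 1 of 6 arrays, one of -0.11. The adjusted p of these 3 lay between 0.212 and 0.76. Whether Egfr passed depended on the processing. It did so with no background correction (log2 change -0.32, adjusted p = 0.00815), in the series matrix values (-0.33, adjusted p = 0.00864), with median scaling (-0.45, adjusted p = 0.0423), with dim probes filtered out (adjusted p = 0.0197) and with an intensity trend in the prior variance (adjusted p = 0.0303), and not when any 1 array was left out.

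Erbb2, the partner receptor, had the opposite sign and a small spread. Its 1 probe gave intensities of 350, 373 and 383 with GFP shRNA and of 361, 452 and 403 with Ube2o shRNA, which overlap before normalization. The normalized level was 8.13 ± 0.024 (SD, n = 3) against 8.41 ± 0.020 (SD, n = 3), and on this scale the groups did not overlap. Over all genes, groups did not overlap for 25.6% (12.7% higher and 12.9% lower), and among the 9 family members this held for Erbb2 and Egfr. The log2 change of Erbb2 was 0.28 (SE 0.11, 95% interval 0.05 to 0.51), a 1.21-fold higher level, short of the threshold (limma adjusted p = 0.181). It passed with no background correction (0.22, adjusted p = 0.0394), in the series matrix values (0.23, adjusted p = 0.0437) and with dim probes filtered out (adjusted p = 0.044). Egfr and Erbb2 both lie on chromosome 11 in the RefSeq table of GRCm38.p6. There the median log2 change was -0.08 over 848 genes above background on all 3 arrays of at least 1 group. With this median subtracted as a fixed value the changes were -0.28 for Egfr (adjusted p = 0.198) and 0.36 for Erbb2 (adjusted p = 0.071). The medians of single chromosomes, taken over genes chosen in the same way, ran from -0.17 for X to 0.27 for chromosome 12. The difference between the changes of the receptors was not tested.

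Erbb3, the neuregulin receptor with the weak kinase, lay at background on all 6 arrays. Its intensities were 146, 138 and 160 with GFP shRNA and 153, 145 and 146 with Ube2o shRNA. The changes shown for Erbb3 in the figures and the closing section are changes of background signal.

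Of the EGFR ligands, Hbegf and Ereg were detected on every array and none passed the test. Hbegf encodes heparin-binding EGF-like growth factor. Its intensities were 312, 285 and 327 with GFP shRNA and 291, 274 and 283 with Ube2o shRNA, and the normalized levels of 7.80 ± 0.13 and 7.75 ± 0.26 (SD, n = 3 each) overlapped. The log2 change was -0.05 with a 95% interval from -0.33 to 0.23 (limma adjusted p = 0.915). A dimmer probe of Hbegf was not above background on any array.

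Ereg, encoding epiregulin, lay just above background. It had intensities of 197, 200 and 221 with GFP shRNA and of 207, 216 and 237 with Ube2o shRNA. The normalized levels were 6.96 ± 0.075 and 7.22 ± 0.18 (SD, n = 3 each), and the lowest Ube2o shRNA array fell within the range of the controls. The log2 change of 0.26 (SE 0.12, 95% interval 0.0033 to 0.51) did not pass (limma adjusted p = 0.297). With the median of chromosome 5 subtracted, -0.10, it was 0.36 (limma adjusted p = 0.11). The dimmer probe, not above background on any array, had a change of -0.08.

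Tgfa and Btc gave little signal. Tgfa, which encodes transforming growth factor alpha, had intensities from 142 to 161 with GFP shRNA and from 147 to 167 with Ube2o shRNA, above background on none of the 6 arrays. Btc, which encodes betacellulin, had intensities of 172, 171 and 196 with GFP shRNA and of 171, 178 and 163 with Ube2o shRNA. It was above background on 2 of 3 arrays of each group, with a log2 change of -0.04 (95% interval -0.31 to 0.23, limma adjusted p = 0.931). Epgn, Ereg, Areg and Btc follow each other without another protein-coding gene between them on chromosome 5 of GRCm38.p6. Epgn, the epigen gene of this cluster, was named after its value was seen. It was above background on 2 of 3 arrays of each group. Its log2 change was 0.0057, with a 95% interval of -0.30 to 0.32 (limma adjusted p = 0.992).

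Nrg1, the neuregulin gene whose product binds ERBB3 and ERBB4, had a negative change on every probe, while whether it passed differed by probe. The brightest probe had intensities of 1085, 1300 and 1495 with GFP shRNA and of 932, 1258 and 995 with Ube2o shRNA, which overlap. Its normalized level was 10.18 ± 0.13 against 9.99 ± 0.088 (SD, n = 3 each), with a log2 change of -0.19 (SE 0.12, 95% interval -0.43 to 0.06) that did not pass (limma adjusted p = 0.475).

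The second brightest Nrg1 probe, almost as bright, fell. It had intensities of 1124, 1200 and 1299 with GFP shRNA and of 655, 1003 and 744 with Ube2o shRNA, so that each Ube2o shRNA array lay below each control. The normalized level went from 10.09 ± 0.013 to 9.54 ± 0.16 (SD, n = 3 each), and the log2 change was -0.56 (SE 0.12, 95% interval -0.80 to -0.31), a 1.47-fold lower level (limma adjusted p = 0.00813). This probe passed whichever 1 array was left out (log2 changes from -0.65 to -0.51) and did not pass with a background offset of 16 (-0.58, adjusted p = 0.11).

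The remaining Nrg1 probes were lower as well without passing. The third, with intensities of 401, 324 and 408 against 214, 368 and 276, gave a log2 change of -0.48 (SE 0.16, adjusted p = 0.114). The dimmest, above background on 1 array, had a change of -0.31 (adjusted p = 0.261). On each of the 4 probes, replicate 2 had the highest normalized level of the Ube2o shRNA arrays. Averaged over its probes, Nrg1 stood at a log2 change of -0.38 (adjusted p = 0.0841). The difference between the probes was not tested, and their positions on the Nrg1 transcripts, which are known to include several isoforms, were not used here.

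**Figure D2:**
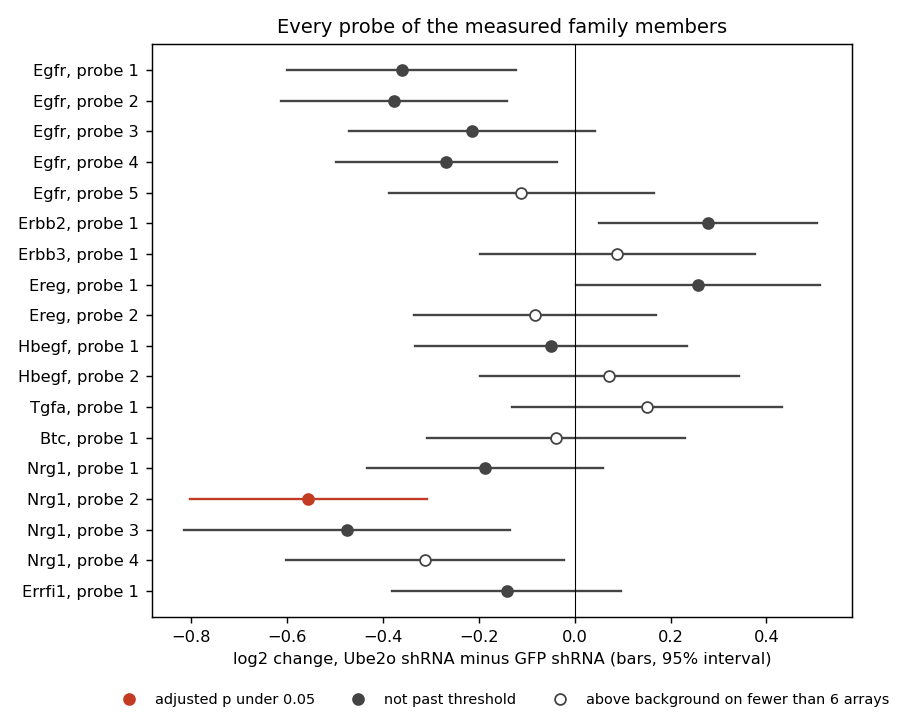
Log2 change, Ube2o shRNA minus GFP shRNA (horizontal axis), of each of the 18 probes of the measured members, numbered by brightness within a gene; bars are 95% intervals from limma and open points were above background on fewer than 6 arrays. The second Nrg1 probe, at -0.56, is past the threshold, and the 5 Egfr probes and the 4 Nrg1 probes lie below 0.

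Errfi1, also called Mig6, encodes a protein that binds the kinase domain of the receptors and blocks it, and it is itself induced by receptor signalling. It was among the well detected members, with intensities of 1425, 1785 and 1808 with GFP shRNA and of 1200, 1636 and 1378 with Ube2o shRNA. The groups overlapped here, and also after normalization, at 10.58 ± 0.12 and 10.43 ± 0.037 (SD, n = 3 each). The log2 change was -0.14 (SE 0.11, limma adjusted p = 0.612), with a 95% interval of -0.38 to 0.10. With the median of chromosome 4 subtracted, 0.15, the change was -0.29 (limma adjusted p = 0.174).

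The genes around the receptors were taken from 5 lists: other family members, ligand shedding, receptor restraint, adaptors with the kinase cascade, and genes that respond to the kinase ERK. The lists, too, were chosen with earlier results of these data known. Of 63 listed genes 55 were measured, and 1 rose, 4 fell and 50 did not pass, against the shares of 2.91% higher and 3.95% lower over all genes. The median log2 change of the 55 genes was 0.04, beside 0.0027 over all genes. The counts depended on the processing, from 0 rises and 2 falls with a background offset of 16 to 7 and 7 with no background correction.

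**Figure D3:**
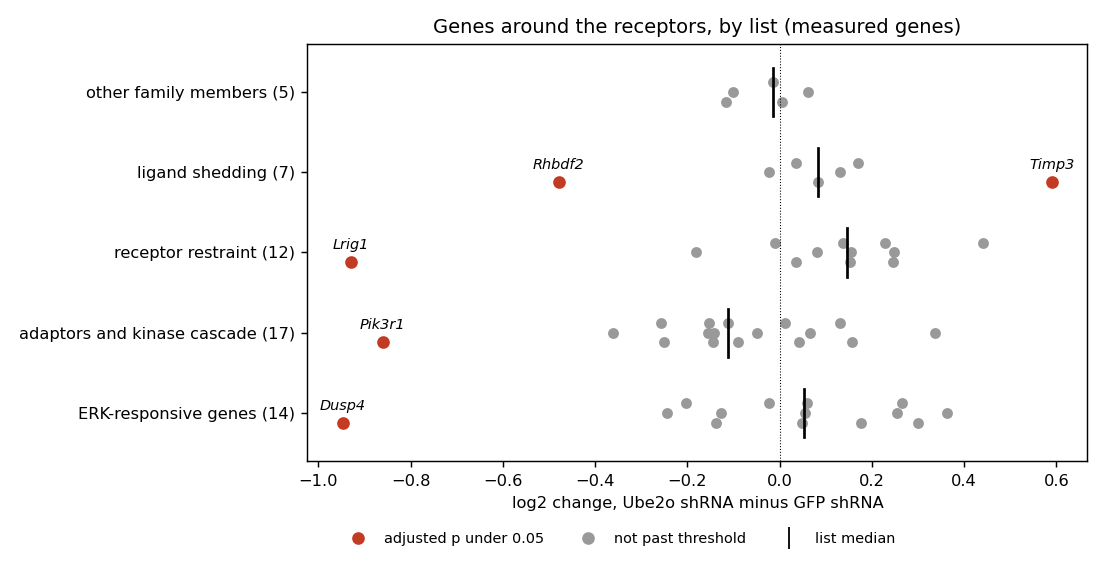
Log2 change, Ube2o shRNA minus GFP shRNA (horizontal axis), of the measured genes of each list (rows, with the number measured), by the brightest probe; red points are past the threshold and black lines are list medians. Timp3 lies to the right at 0.59, Rhbdf2, Pik3r1, Lrig1 and Dusp4 lie to the left between -0.48 and -0.95, and list medians lie between -0.11 and 0.14.

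Among the 12 genes listed under receptor restraint, a name that need not hold for each of them, Lrig1 fell and 11 genes did not pass. LRIG1 is a membrane protein that binds receptors of this family and promotes their degradation. Its 1 probe gave intensities of 1217, 1546 and 1699 with GFP shRNA and of 621, 928 and 734 with Ube2o shRNA, with no overlap. Lrig1 had a log2 change of -0.93 (SE 0.12), a 1.91-fold lower level (limma adjusted p = 0.000104), and it passed under 16 of 16 alternative settings.

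Of 14 measured genes that respond to ERK, Dusp4 fell and 13 did not pass. DUSP4 is a nuclear phosphatase that removes phosphate from ERK and related kinases. Its brightest probe gave 399, 439 and 517 with GFP shRNA and 224, 279 and 269 with Ube2o shRNA. This fall of 0.95 on the log2 scale (SE 0.11) made the level 1.93-fold lower (limma adjusted p = 4.34e-05), past the threshold under 16 of 16 alternatives, where it ranged from -1.09 to -0.45. The dimmer Dusp4 probes had changes of -0.49, which passed (adjusted p = 0.016), and of -0.25 and -0.14, which did not; the first of these was detected on 1 Ube2o shRNA array and the other on no array of either group. The 14 genes had a median log2 change of 0.05 and ran from -0.95 for Dusp4 to 0.36 for Fos. Fos, named after its value was seen, did not pass (limma adjusted p = 0.0691).

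Of 17 measured adaptors and kinases, Pik3r1 fell and 16 genes did not pass. Pik3r1 encodes the main regulatory subunit of phosphoinositide 3-kinase, which the receptors engage. Its brightest probe had intensities of 1052, 1018 and 1483 with GFP shRNA and of 539, 886 and 528 with Ube2o shRNA. At a log2 change of -0.86 (SE 0.16) the level was 1.82-fold lower (limma adjusted p = 0.0027), and a second probe fell by 0.79 (adjusted p = 0.00152), while the 2 others were above background on no array. With all 4 probes averaged the change was -0.42 and did not pass (adjusted p = 0.0827), nor did it with the offset of 16 (-0.90, adjusted p = 0.105). Named after their values were seen, dimmer probes of Araf, a RAF kinase (-0.64, adjusted p = 0.00311), and of Ptpn11, the phosphatase SHP2 (-0.45, adjusted p = 0.0414), passed as well, while their brightest probes did not (-0.36 and -0.25, adjusted p = 0.0707 and 0.262). The 3 other Araf probes did not pass, with log2 changes of -0.11 and 0.21 for those above background on all 6 arrays and of -0.05 for the dimmest, and the 2 other Ptpn11 probes, at -0.35 and -0.30, did not either.

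Of 7 measured genes of ligand shedding, Timp3 rose, Rhbdf2 fell and 5 did not pass. TIMP3 is a matrix-bound inhibitor of metalloproteases, ADAM17 among them. Its brightest probe gave 1046, 1296 and 1321 with GFP shRNA and 1415, 2034 and 1572 with Ube2o shRNA, all 3 above all controls. The log2 change was 0.59 (SE 0.12), 1.51-fold higher (limma adjusted p = 0.00458). A second Timp3 probe rose by 0.62 (adjusted p = 0.00691), the dimmest had a change of 0.05, and with the offset of 16 the call was lost (0.61, adjusted p = 0.0902).

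Rhbdf2 encodes an iRhom, which carries ADAM17 to the cell surface. It had intensities of 228, 230 and 221 with GFP shRNA and of 158, 201 and 178 with Ube2o shRNA, without overlap. The log2 change was -0.48 (SE 0.12, limma adjusted p = 0.0251). It did not pass with the offset of 16 (-0.67, adjusted p = 0.11), with the median of its chromosome subtracted (-0.40, adjusted p = 0.0712), or without replicate 1 or 2 of GFP shRNA or replicate 1 or 3 of Ube2o shRNA (-0.46 to -0.43 over these).

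None of the 5 measured other family members passed. Erbb4, the second neuregulin receptor and the one with the smallest p of these, was above background on 0 of 6 arrays (adjusted p = 0.704).

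The genes whose profile over the 6 arrays was most like those of the receptors were ranked among 9419 genes detected on every array, as a description only, since arrays of 2 groups share their group difference and many genes reach high values on so few points. Those nearest to Egfr by Pearson's r were Ube2b (0.9995), Ephx1 (0.995) and Fscn1 (0.993), with log2 changes of -0.22, -0.40 and -0.49. Those nearest to Erbb2 were Ippk (0.998), Gpr149 (0.998) and Fam221a (0.996), with log2 changes of 0.31, 1.83 and 0.34. A value above 0.9 was reached by 535 genes for Egfr and by 796 for Erbb2.

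**Figure D4:**
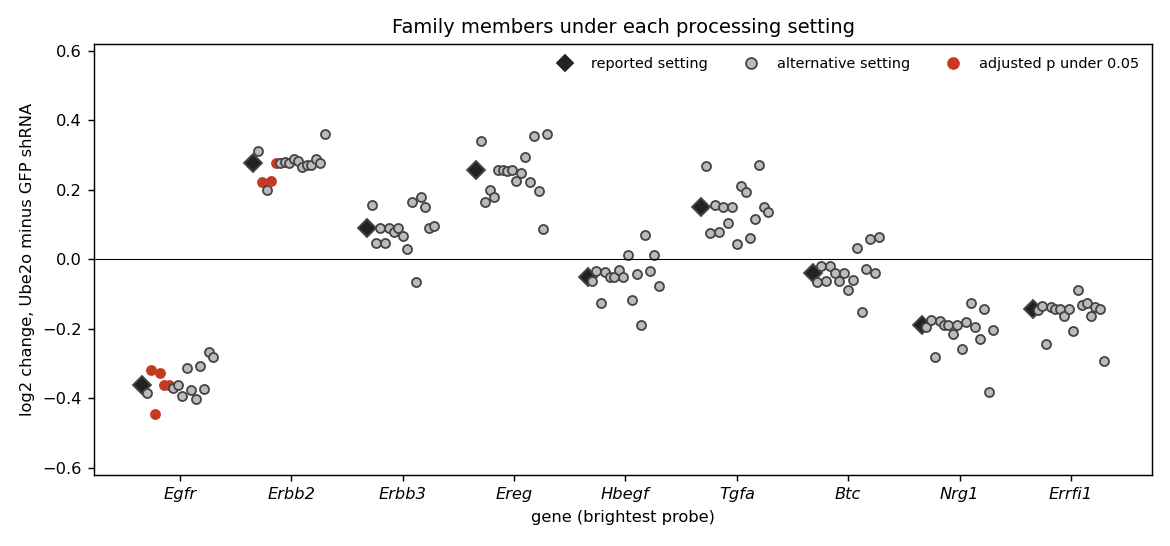
Log2 change, Ube2o shRNA minus GFP shRNA (vertical axis), of the brightest probe of each measured member (horizontal axis) in the reported setting (diamond) and under the alternatives (circles), with red for those past the threshold. Among the circles is the average over the probes of a gene, which is not the brightest probe where a gene has several. Egfr keeps a negative and Erbb2 a positive change throughout, and Egfr passes under 5 alternatives and Erbb2 under 3.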

How the data were processed

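RNA of 6 cultures was hybridised to single-colour Illumina arrays, per the labels' protocols. The deposited tables are linear probe intensity, not normalized, with lowest values of 106 to 121, and the authors' series matrix of log2 values, found to be quantile normalized (sorted values equal within 0.001, median 7.386). For scanner software and background steps the labels name nothing (not given in the sources used here). Samples were grouped by title; 1 label calls the Ube2o reagent an siRNA.

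From the intensity table, background was corrected with normexp (saddle, offset 50, which compresses changes of dim genes), followed by quantile normalization and log2. A probe was above background at p under 0.05 in the distribution around and below the mode of its array. Of 45281 probes, 35784 carried 1 symbol, updated through RefSeq identifiers and synonyms (GRCm38.p6). The test was limma 3.58.1 under R 4.3.3 (lmFit, eBayes; two-sided), and p-values were adjusted over all probes by the Benjamini-Hochberg method. Intervals are at 95%. The procedure was tested on simulated data. Members and lists were chosen with earlier results of these data known. Beside the members, genes named were Ube2o, up to 4 called genes per list (or the 1 of smallest p), and the 3 profiles nearest to the members of smallest p in each direction.

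Replicate numbers did not pair the samples by the check used, whose result stands in the closing section.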

Additional observations from a re-analysis of the deposited data

How the results depend on the processing

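Over the alternatives run, the brightest probes of Egfr, Erbb2, Ereg, Tgfa, Nrg1 and Errfi1 kept the sign of their change, as did the averages over the probes of each. Member genes called higher numbered 1 without background correction, in the authors' series matrix and with dim probes filtered out (Erbb2), and members called lower numbered 1 in these and with median scaling and the intensity trend (Egfr); 0 passed in either direction when any 1 array was left out. Signs turned for Erbb3 without Ube2o shRNA replicate 1 (-0.064), for Ereg by its second probe (-0.084), for Hbegf when replicate 1 of GFP shRNA (0.012) or replicate 2 of Ube2o shRNA (0.071) was left out, by its second probe (0.073) and with probes averaged (0.011), and for Btc without replicate 3 of either shRNA (0.032 and 0.059) and with its chromosome median subtracted (0.064), none past the threshold in either form; the cause was not tested. Leaving out 1 array gave ranges of -0.064 to 0.18 for Erbb3, -0.19 to 0.071 for Hbegf and -0.15 to 0.059 for Btc. List genes called higher numbered 0 with the offset of 16, 7 in the series matrix and likewise without background correction, 4 with dim probes filtered out and with the intensity trend, 2 with probes averaged, and 1 to 2 with 1 array left out; those called lower numbered 2 with the offset of 16, 7 with no background correction and 3 to 4 with 1 array left out. Over all probes, 1019 were higher and 1217 lower; the counts were 179 and 405 with the offset of 16, 2024 and 1942 without background correction, 2011 and 1930 for the authors' log2 values, and 1990 and 1970 with dim probes filtered out, where 18692 probes were tested. Median scaling gave 567 higher and 1544 lower, the intensity trend 1657 higher, and leaving out 1 array 615 to 731 higher and 830 to 958 lower. With the replicate number as a block, 0 members passed (Egfr -0.36, adjusted p = 0.115), and the second Nrg1 probe, tried under the alternatives after its values were seen, still did (-0.56, adjusted p = 0.0112). Deviations of same-numbered arrays from their group means correlated at 0.0247, -0.116 and 0.0799, so the numbers were not taken as pairs. Dim signal limits Erbb3, Tgfa, Btc and Ereg most.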
